A study of Homo sapiens with 8 samples.

Results

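The enzymes that write, copy and erase DNA methylation were examined in H9 human embryonic stem cells (hESCs) of 4 passage ranges. The 9 genes were chosen by name: the methyltransferases DNMT1, DNMT3A and DNMT3B, the cofactors DNMT3L and UHRF1, the dioxygenases TET1, TET2 and TET3, and the glycosylase TDG. Each symbol matched 1 of the 60675 genes in the deposited tables, and all 9 were among the 19499 genes that were tested. H9 (WA09) is an established hESC line, and all 8 samples were untreated cells of this line, grown without feeders on Matrigel in mTeSR1 medium. The lines were P1 (passage 40s), P2 (passage 100s), P3 (passage 200s) and P4 (passage 300s), with 2 samples of each. The study sets P1 and P2 against P3 and P4 hESCs, called early and late here, and describes the 4 lines as isogenic but differing in copy number at 20q11.21, a gene-dense band of chromosome 20. Each passage range is therefore 1 lineage of 1 line, so passage number cannot be told apart from anything else that differed between the cultures. The labels leave unsaid whether both samples of each line came from separate cultures, so p-values measure only the spread between these samples, which may be technical.

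DNA methylation is set on cytosines of CpG pairs by the de novo enzymes DNMT3A and DNMT3B, whose activity the catalytically inactive DNMT3L raises. After replication, UHRF1 binds the half-methylated CpG and brings in DNMT1, which copies the mark onto the new strand. The TET enzymes oxidize methylated cytosine in steps, and TDG removes the later products so that base excision repair can restore an unmethylated cytosine. Primed hESCs are known for high DNMT3B and TET1, whereas DNMT3L is associated with germ cells and the naive pluripotent state.

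The libraries held 26874899 to 38095600 expected counts, and mitochondrially encoded genes took 5.89 to 18.5% of them. The second P1 sample and the first P3 and P4 samples had mitochondrial shares between 17.2 and 18.5%, against 5.89 to 9.84% in the other 5 samples. The pluripotency genes checked the cell type: POU5F1 was at 1205 to 2123 CPM (counts scaled to the size of the library), SOX2 at 217 to 386 CPM and LIN28A at 1095 to 1647 CPM. The summed level of 12 pluripotency markers was 5527 to 6637 CPM in P1 and P2 and 6319 to 6776 CPM in P3 and P4 hESCs. Of the 12, 2 differed among lines in edgeR, where 13.1% of all tested genes did. ZIC2 fell from 132 to 141 CPM in P1 and P2 to 53.3 to 75.7 CPM in P3 and P4 hESCs (adjusted p = 0.00148 in edgeR). ZFP42 ranged from 70.7 to 204 CPM (adjusted p = 0.0193 among lines in edgeR). The 9 naive state markers summed to 37.3 to 46.1 CPM in P1 and P2, 40.5 and 30.8 CPM in P3, and 61.5 and 86.4 CPM in P4 hESCs. Of the 7 tested, 3 differed among lines, beside the same 13.1% of all genes. KLF17 and ARGFX had at most 3 counts in every sample. Markers of other cell types summed to 3.58 to 7.30 and 2.85 to 8.31 CPM (9 mesendoderm genes), 160 to 221 and 161 to 295 CPM (9 neuroectoderm genes) and 19.3 to 30.3 and 15.4 to 20.8 CPM (8 trophectoderm genes). Of the neuroectoderm sum, TUBB3 alone gave 135 to 262 CPM, and SOX1 stayed at or below 0.348 CPM. The 7 fibroblast markers summed to 811 to 1225 CPM in P1 and P2 and 754 to 1097 CPM in P3 and P4 hESCs, through COL1A1, COL1A2 and THY1, whereas COL3A1, DCN and LUM were each at or below 0.167 CPM. Their part in the results below was not tested.

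The enzymes spanned a wide range of levels, and their order was the same in all 8 samples. TPM values, which are divided by transcript length and scaled to a fixed total per sample, were used for comparisons between genes. On the TPM scale the mean level over the 8 samples was 368 for DNMT3B, 72.9 for DNMT1, 55.4 for DNMT3A, 40.5 for TDG, 21.7 for UHRF1, 9.70 for TET1, 4.60 for TET3, 0.729 for TET2 and 0.171 for DNMT3L. Each neighbouring pair in this order kept its order within 8 of 8 samples. DNMT3B exceeded DNMT1 5.06-fold in mean TPM, TET3 exceeded TET2 6.31-fold and TET2 exceeded DNMT3L 4.26-fold, and in these 3 pairs the ranges over samples did not overlap. The ranges of the 5 pairs from DNMT1 down to TET3 overlapped across samples, so those neighbours were separated only within a sample. Levels are from bulk RNA, in which fewer cells expressing a gene and less RNA per cell cannot be told apart.

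TET1 had the smallest adjusted p of the 9 in the test of any difference among lines. It lies on the forward strand of chr10:68560656-68694482 (GRCh38, GENCODE 29) and has 1 transcript in the deposited tables. Its promoter is shown beside that of DNMT1, the member with the smallest range in CPM, so that the sequence around their start sites can be compared, and no relation between sequence and expression was tested. Both windows are from RefSeq on GRCh38.p14 with a length of 300 bases around the annotated start, and are written 5′ to 3′ on the gene's strand with each CpG in capitals.
TET1 promoter, chr10:68560087-68560386, plus strand: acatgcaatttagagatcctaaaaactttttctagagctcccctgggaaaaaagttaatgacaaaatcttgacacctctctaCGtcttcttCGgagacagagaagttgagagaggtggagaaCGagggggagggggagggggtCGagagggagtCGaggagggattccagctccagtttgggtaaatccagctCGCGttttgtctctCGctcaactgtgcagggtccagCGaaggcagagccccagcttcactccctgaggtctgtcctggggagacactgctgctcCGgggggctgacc
DNMT1 promoter, chr19:10194904-10195203, minus strand: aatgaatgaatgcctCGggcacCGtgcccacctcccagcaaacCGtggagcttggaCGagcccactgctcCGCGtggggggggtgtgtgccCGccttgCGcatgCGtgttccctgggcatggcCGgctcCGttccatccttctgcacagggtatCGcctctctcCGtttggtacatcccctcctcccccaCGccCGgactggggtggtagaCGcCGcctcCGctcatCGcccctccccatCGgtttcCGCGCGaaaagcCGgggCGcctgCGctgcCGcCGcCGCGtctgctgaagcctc
The search was for the letters CG, which read the same on both strands. The TET1 window held 10 CpGs and the DNMT1 window 30, and 56.4% and 22.4% of the 35116 RefSeq promoter windows of this length held at least as many. The median over all windows was 14 CpGs. RefSeq windows matched 8 of the 9 genes. The other starts of TET1 held 6 and 11 CpGs, the DNMT3B window held 3 and the TDG window held 22. The windows of TET2 held 13 and 35, those of TET3 33 and 45, those of DNMT3A 18 to 46 and those of UHRF1 36 to 46. The counts are a description of sequence, and no methylation was measured in these libraries.

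TET1 was at 102 and 113 CPM in the P1 samples, 68.0 and 67.3 CPM in P2, 67.7 and 70.5 CPM in P3, and 57.8 and 59.5 CPM in P4 hESCs. Both P1 samples were above all 6 others, and both P4 samples were below all others. The fitted change from P1 was -0.67 ± 0.18 (log2, SE) in P2, -0.64 ± 0.18 in P3 and -0.88 ± 0.18 in P4 hESCs, that is 0.628-, 0.642- and 0.545-fold. With edgeR's quasi-likelihood fit and p-values adjusted (Benjamini-Hochberg) across every tested gene, TET1 fell in P3 (adjusted p = 0.0345) and in P4 (adjusted p = 0.0124). The P2 change was of the same size but had an adjusted p of 0.330. The unadjusted p was 0.0023 in P2 and 0.0032 in P3, and the adjustment differed because 0.00513% of all genes were called in P2 against P1 and 12.5% in P3 against P1. The 3 comparisons share the P1 samples. P4 against P3 did not pass (-0.24 ± 0.18, 95% interval -0.58 to 0.11, adjusted p = 0.489). A single test of any difference among the 4 lines gave TET1 an adjusted p of 0.0190.

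The P3 and P4 calls rested on few samples. The P3 call was lost when any 1 of the P1, P2 or P3 samples was left out, and the P4 call when the second P1 sample or either P4 sample was left out. Without the second P1 sample, which had the highest TET1, the change was -0.56 in P3 (adjusted p = 0.219) and -0.80 in P4 (adjusted p = 0.113), both in edgeR. Without the 2 P2 samples in turn the P3 change hardly moved (-0.64 both times) and its adjusted p was 0.0800. Fitted on the 4 samples of P1 and P3 alone it was also -0.64, with an adjusted p of 0.0747 in edgeR. With P1 and P2 pooled against P3 and P4, as the study groups the lines, the TET1 value was -0.46 ± 0.19 (log2, SE) and did not pass (adjusted p = 0.156 in edgeR), and the P2 and P3 samples overlapped.

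TET2 and TET3, the other oxidizing enzymes, showed no call in any comparison. TET2 (chr4:105145875-105279816, forward strand) was at 5.84 and 5.73 CPM in P1, 8.18 and 5.52 CPM in P2, 5.25 and 4.69 CPM in P3, and 4.81 and 5.32 CPM in P4 hESCs. The 4 P3 and P4 samples were all below the 4 P1 and P2 samples, by 0.20 CPM at the nearest pair. The fitted change was -0.33 ± 0.20 (log2, adjusted p = 0.330 in edgeR), and the exact permutation test over samples gave p = 0.0286 (two-sided, n = 4 and 4), the smallest it can give. Any gene whose groups do not overlap gets this p, so it only restates the separation, and 17.6% of all tested genes did not overlap. TET3 (chr2:73986404-74108176, forward strand) was at 42.8 and 36.7 CPM in P1, 51.1 and 52.9 CPM in P2, 40.3 and 34.4 CPM in P3, and 40.9 and 35.8 CPM in P4 hESCs. Both P2 samples were above all 6 others, and the remaining lines overlapped. The P2 change from P1 was 0.39 ± 0.19 (adjusted p = 0.578 in edgeR).

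The sum of the 3 TET genes, a quantity formed after the values were seen, was 16.7 to 19.7 TPM in P1 and P2 and 10.3 to 14.6 TPM in P3 and P4 hESCs. The groups did not overlap on the TPM scale, on the CPM scale or in TPM without mitochondrial genes. TET1 made up 71.4 and 75.8% of the summed TET TPM in P1, and 55.5 to 67.4% in the other 6 samples. These sums are descriptions and were given no test.

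TDG (chr12:103965804-103988874, forward strand), which excises oxidized cytosine, was at 89.1 and 79.4 CPM in P1, 88.2 and 72.7 CPM in P2, 92.7 and 114 CPM in P3, and 92.2 and 60.2 CPM in P4 hESCs. The lines overlapped, with the highest value in the second P3 sample and the lowest in the second P4 sample. No comparison passed, and the change of P3 and P4 against P1 and P2 was 0.13 ± 0.18 (95% interval -0.23 to 0.48, adjusted p = 0.704 in edgeR). TDG has an annotated pseudogene, TDGP1, and TET1 has TET1P1, so reads shared with these copies make both counts uncertain to that extent.

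**Figure D1:**
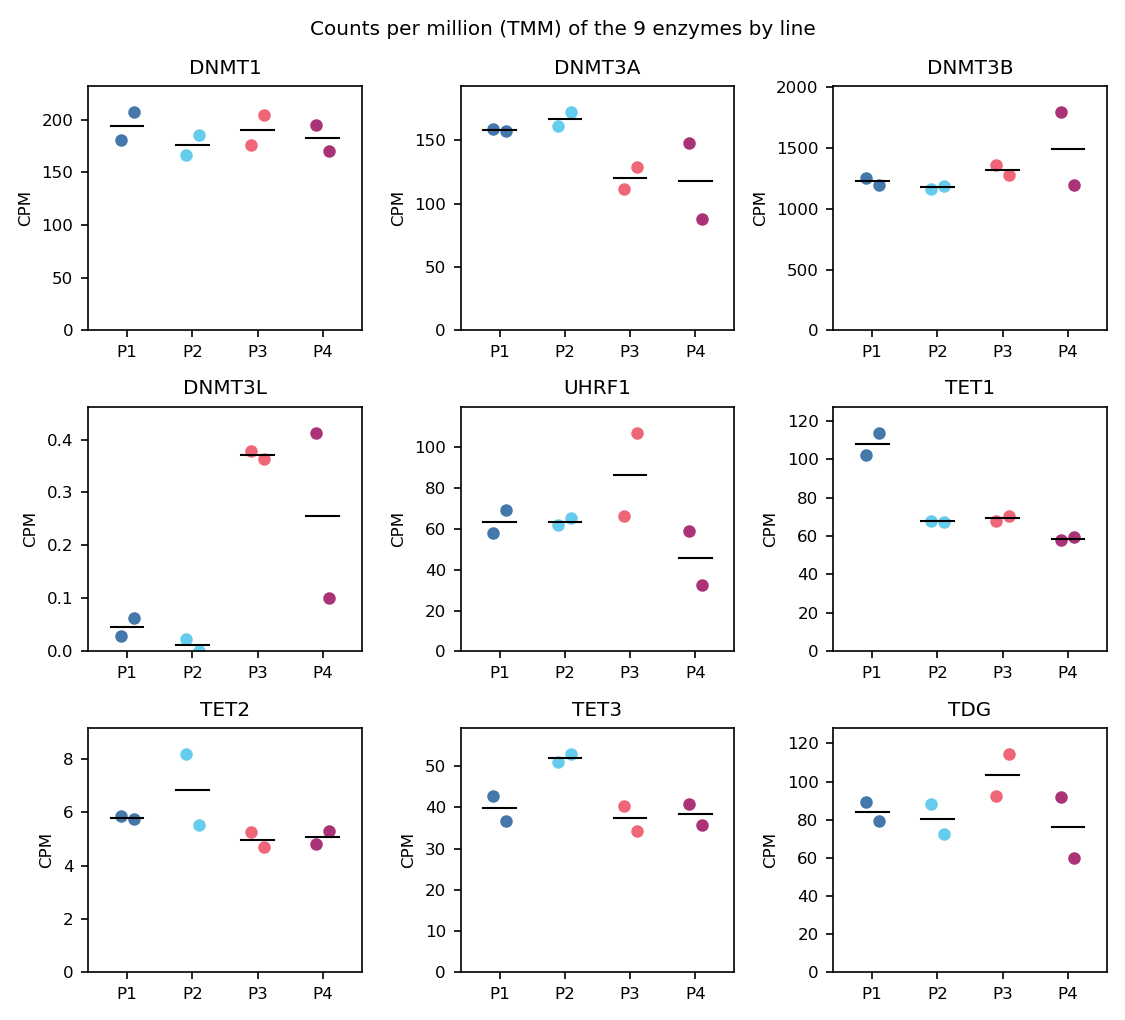
Expression of the 9 enzymes in CPM on linear axes from 0, with 1 point for each of the 2 samples of P1 to P4 hESCs and a line at their mean. The P1 points of TET1 (102 and 113 CPM) stand above the other 6, the 4 late points of DNMT3A below the 4 early ones, and DNMT3L never exceeds 0.412 CPM.

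The de novo enzymes DNMT3A and DNMT3B had fitted changes of opposite sign in P3 and P4 against P1 and P2, and neither passed the test. DNMT3A (chr2:25227855-25342590, reverse strand) was at 159 and 158 CPM in P1, 162 and 172 CPM in P2, 111 and 129 CPM in P3, and 148 and 87.7 CPM in P4 hESCs. All 4 P3 and P4 samples were below all 4 P1 and P2 samples, and the 2 P4 samples were 60.4 CPM apart. The mean was 163 ± 6.56 CPM (SD, n = 4) in P1 and P2 and 119 ± 25.7 CPM (SD, n = 4) in P3 and P4 hESCs. The fitted change was -0.45 ± 0.16 (log2, SE, 0.732-fold, 95% interval -0.77 to -0.13), with an adjusted p of 0.111 in edgeR. The exact permutation test gave p = 0.0286 (two-sided, n = 4 and 4), which is the smallest p it allows. As for TET2, this p follows from the lack of overlap and adds nothing to it. In TPM, which divides by the estimated transcript length and by a total that includes mitochondrial RNA, the groups overlapped, with 48.6 to 75.6 TPM in P1 and P2 and 33.3 to 57.7 TPM in P3 and P4 hESCs.

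DNMT3B (chr20:32762385-32809356, forward strand), the most abundant member, was at 1256 and 1195 CPM in P1, 1165 and 1187 CPM in P2, 1361 and 1278 CPM in P3, and 1793 and 1191 CPM in P4 hESCs. The groups overlapped through the second P4 sample, and the first P4 sample stood above the rest. The change of P3 and P4 against P1 and P2 was 0.23 ± 0.15 (log2, SE, 1.17-fold, adjusted p = 0.369 in edgeR). Without the first P4 sample the change of P4 against P1 went from 0.28 to -0.04.

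The ratio of DNMT3B to DNMT3A, formed after the values were seen, was 4.87 to 6.36 in P1 and P2 and 6.88 to 9.33 in P3 and P4 hESCs on the TPM scale. On the CPM scale it was 6.90 to 7.89 and 9.91 to 13.6. The groups did not overlap on either scale, and no test was made.

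DNMT3B lies in the copy-number band, next to genes that rose in P3 and P4 hESCs. Of the 28 listed genes of the band near DNMT3B, 23 were tested. On the centromeric side, 17 of 19 tested genes rose in P3 and P4 against P1 and P2, with log2 fold changes from 1.09 (ASXL1) to 2.04 (TPX2). Of all tested genes, 7.54% were called in this comparison. COMMD7, whose start is 18.4 kb from that of DNMT3B, was at 30.0 to 32.9 CPM in P1 and P2 and 83.0 to 128 CPM in P3 and P4 hESCs, a log2 fold change of 1.63 ± 0.16. MAPRE1, whose start is 57.5 kb on the other side, changed by 0.11 ± 0.16. On that side, with DNMT3B included, 0 of 5 tested genes were called, with log2 fold changes from -0.11 to 0.23. The P3 and P4 samples of COMMD7 did not overlap those of P1 and P2, whereas those of DNMT3B did. This list was chosen for the band, so its counts are not independent of the known copy number difference, and the copy number of DNMT3B itself was not analysed here.

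**Figure D2:**
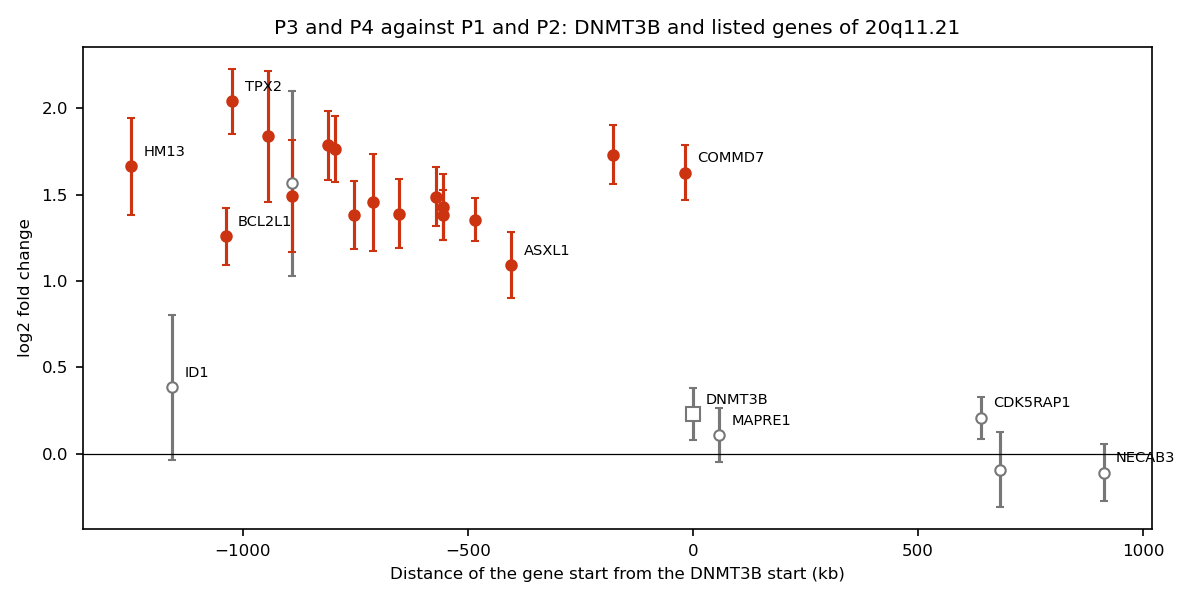
Fitted log2 fold change of P3 and P4 against P1 and P2 hESCs, with its standard error, for DNMT3B (square) and its tested neighbours by distance of the gene start from that of DNMT3B in kb. Filled points passed an adjusted p of 0.05 in edgeR. COMMD7 at 1.63 is the nearest filled point, and DNMT3B at 0.23 and MAPRE1 at 0.11 are open.

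DNMT3L (chr21:44246339-44262216, reverse strand), the cofactor of the de novo enzymes, was close to the detection limit throughout. Its expected counts were 1 and 2 in P1, 1 and 0 in P2, 12 and 13 in P3, and 12 and 3 in P4 hESCs. The 4 P3 and P4 samples were above the 4 P1 and P2 samples, but the second P4 sample, with 3 counts, was at the floor of 3 counts that corresponds to 0.0787 to 0.112 CPM. The gene passed the filter on low counts only through the P3 and P4 samples, so a difference among the samples was built into its being tested. Summed over samples, the count rate was 11.3 times higher in P3 and P4 than in P1 and P2 hESCs (40 against 4 counts, exact 95% interval 4.10 to 43.7, counting error only). DNMT3L rose in the fit of P3 and P4 against P1 and P2 (log2 fold change 3.32 ± 0.74, adjusted p = 0.0213 in edgeR), a value that depends on the prior count. Leaving out 1 sample ended the call for 6 of the 8 samples: both P2 samples, both P3 samples, the first P1 sample (adjusted p = 0.0770 in edgeR) and the first P4 sample. Without the 3 samples of high mitochondrial share its log2 fold change was 3.48, with an adjusted p of 0.181 in edgeR. In P3 against P1 its adjusted p was 0.0637 and in P4 against P1 it was 0.187. The antisense transcript AP001059.1 overlaps DNMT3L, and whether the counting used strand is not given in the sources used here. Its mean of 0.171 TPM, against 368 TPM for DNMT3B, is a trace of RNA.

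The maintenance pair UHRF1 and DNMT1 did not pass the test in any comparison. UHRF1 (chr19:4903080-4962154, forward strand) was at 57.8 and 69.1 CPM in P1, 61.9 and 65.2 CPM in P2, 66.3 and 107 CPM in P3, and 59.0 and 32.7 CPM in P4 hESCs. The 4 early samples lay between the extremes of the late samples, which held both the highest and the lowest value. P4 against P3 gave -0.92 ± 0.29 (log2, SE, 95% interval -1.48 to -0.36), with an adjusted p of 0.105 in edgeR. It passed in DESeq2 (adjusted p = 0.0316) and without the first P4 sample in edgeR (adjusted p = 0.0287), and the value was -0.54 without the second P3 sample. The summed level of 17 S phase genes went the same way in the second samples, at 2747 CPM in the second P3 and 1909 CPM in the second P4 sample against 2250 to 2663 CPM in the other 6. The part of S phase in the UHRF1 values was not tested.

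DNMT1 (chr19:10133345-10231286, reverse strand) had the smallest range of the 9 in CPM, with a ratio of 1.25 between its highest and lowest value. It was at 181 and 207 CPM in P1, 166 and 186 CPM in P2, 176 and 205 CPM in P3, and 195 and 170.3 CPM in P4 hESCs. The lines overlapped, and the change of P3 and P4 against P1 and P2 was 0.01 ± 0.13 (log2, SE, 95% interval -0.24 to 0.26, adjusted p = 0.968 in edgeR). On the TPM scale the same reads gave 84.0 and 94.2 in P1, 75.7 and 76.6 in P2, 39.4 and 80.9 in P3, and 66.7 and 65.7 in P4 hESCs, a 2.39-fold range. The TPM change of P3 and P4 against P1 and P2 was -0.42 (limma on log2(TPM + 1), adjusted p = 0.308).

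TPM divides by a total that includes mitochondrial RNA as well as by an estimated transcript length. Without mitochondrial genes, DNMT1 was at 105 and 142 TPM in P1, 87.8 and 88.2 TPM in P2, 57.9 and 96.7 TPM in P3, and 97.7 and 74.4 TPM in P4 hESCs. How much the total and the length each gave to the gap between the scales was not tested. The length that RSEM estimated for DNMT1 is the abundance-weighted mean over its 29 annotated transcripts. It was 2897 and 2530 bases in P1, 3050 and 3242 bases in P2, 4176 and 3423 bases in P3, and 3253 and 3474 bases in P4 hESCs. All 4 P3 and P4 samples were longer than all 4 P1 and P2 samples, by 11 bases at the nearest pair. Such a separation in either direction was found for 3.99% of the 15596 tested genes whose estimated length varied between samples. DNMT1 was the only member with it, picked out after its values were seen. S1PR2 overlaps DNMT1 in the annotation. Isoform tables were not analysed here, so the transcripts behind the lengths cannot be named.

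**Figure D3:**
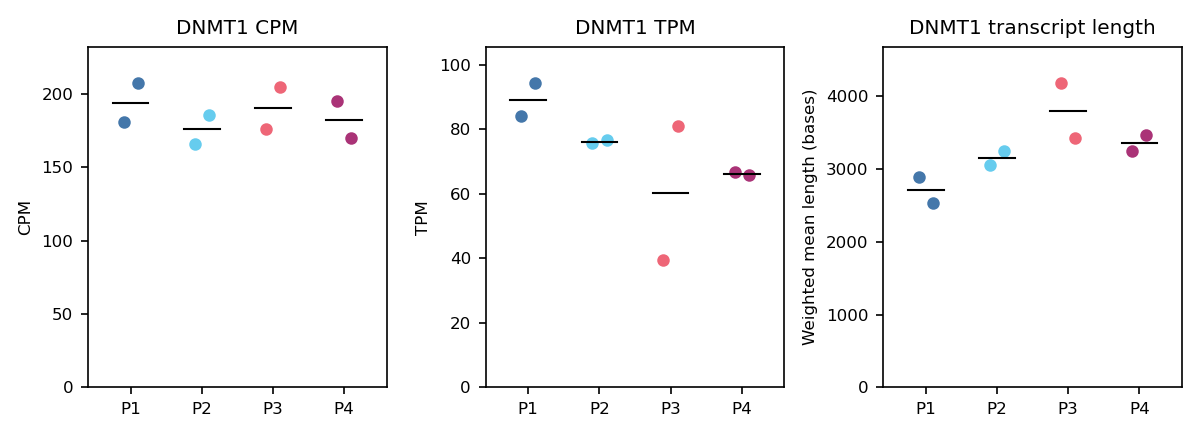
DNMT1 in CPM, in TPM and as estimated transcript length in bases, on linear axes from 0, with 1 point for each of the 2 samples of a line and a line at their mean. CPM overlaps between lines at 166 to 207, while length rises from 2530 to 3242 bases in P1 and P2 to 3253 to 4176 bases in P3 and P4 hESCs.

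Over the 9 enzymes, 0 to 2 were called in any comparison. A call is an adjusted p under 0.05 in edgeR. In P3 and P4 against P1 and P2, 1 of 9 (DNMT3L) was called, where 7.54% of all tested genes were called. Since DNMT3L was tested only because of its late counts, this count is no support for a difference among the 9. In P2 against P1, 0 of 9 were called, with 0.00513% among all genes. TET1 alone had an unadjusted p under 0.05 there, as had 1782 of all 19499 genes. In P3 against P1, 1 of 9 (TET1) was called, where 12.5% of all genes were called. In P4 against P1, 1 of 9 (TET1) was called, with 5.94% among all genes. In P4 against P3, 0 of 9 were called, with 3.31% among all genes, and UHRF1 alone had an unadjusted p under 0.05, as had 3739 of all 19499 genes. In the test of any difference among lines, 2 of 9 (TET1, and DNMT3L with an adjusted p of 0.0399) were called in edgeR, with 13.1% among all genes. Here too DNMT3L was tested only because of its late counts, so its call adds no support. By the study's thresholds for a differentially expressed gene (adjusted p under 0.01 and absolute log2 fold change above 1), 0 of 9 passed in any of the 5 comparisons. The shares of all genes passing those thresholds were 2.20% for P3 and P4 against P1 and P2, 0% for P2 against P1, 3.93% for P3 against P1, 2.11% for P4 against P1 and 0.815% for P4 against P3. In CPM, 3 of 9 (DNMT3A, DNMT3L and TET2) did not overlap between P1 and P2 and P3 and P4 hESCs, where 17.6% of all genes did not. The same limit holds for DNMT3L in this count, which is no support for a difference among the 9. The median log2 fold change of the 9 was 0.01 in P3 and P4 against P1 and P2, as was that of all tested genes.

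**Figure D4:**
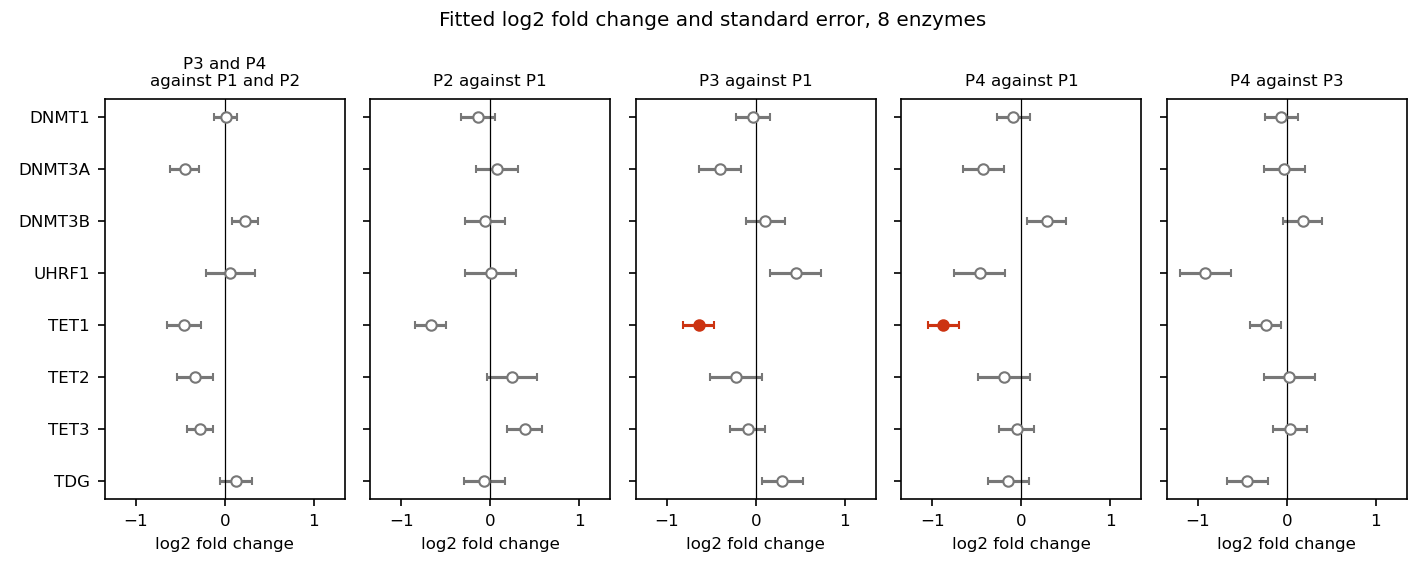
Fitted log2 fold change with its standard error for 8 enzymes in the 5 comparisons, filled where the adjusted p was under 0.05 in edgeR. DNMT3L is left out because its fitted value depends on the prior count. TET1 is filled in P3 against P1 (-0.64) and P4 against P1 (-0.88), and UHRF1 in P4 against P3 (-0.92) is the farthest open point.

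The genes around these enzymes were taken from lists of their partners. The counts below stand beside 13.1% of all tested genes called among lines and 7.54% called in P3 and P4 against P1 and P2. With lists this short, they were not read as a result about the lists. Of 12 partners of maintenance methylation, 1 rose in P3 and P4 against P1 and P2 and 0 fell, and 2 differed among lines. DPPA3, which displaces UHRF1 from chromatin in germ cells and early embryos, was at 0.745 and 0.788 CPM in P1, 0.609 and 0.476 CPM in P2, 1.80 and 1.70 CPM in P3, and 1.51 and 2.02 CPM in P4 hESCs. It rose by 1.42 ± 0.28 (log2, SE, adjusted p = 0.0132 in edgeR), with no overlap, at a trace level. PCLAF, which binds the replication clamp, was at 59.7 and 66.3 CPM in P3 and 37.8 and 31.4 CPM in P4 hESCs, against 43.6 to 48.0 CPM in P1 and P2.

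Of 13 genes that direct de novo methylation to its targets, 1 differed among lines. KDM1A, a histone demethylase that acts on lysine 4 of histone H3 and stabilizes DNMT1, was at 261 and 224 CPM in P1, 257 and 260 CPM in P2, 282 and 324 CPM in P3, and 132 and 127 CPM in P4 hESCs. It was lowest in both P4 samples, with a fall of 0.90 ± 0.19 from P1 (log2, SE, adjusted p = 0.0144 in edgeR). DNMT1 and DNMT3A gave -0.09 ± 0.19 and -0.43 ± 0.23 in the same comparison.

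Of 15 listed genes of base excision repair or linked to active demethylation, 3 differed among lines. NEIL1, a glycosylase, was at 5.06 and 7.81 CPM in P3 against 10.5 to 24.1 CPM in the other lines. GADD45B was at 5.25 and 4.18 CPM in P3 against 8.48 to 15.0 CPM elsewhere, and GADD45A was at 18.1 and 16.5 CPM in P4 against 6.51 to 11.9 CPM elsewhere. Both are stress-response genes that have been linked to active demethylation.

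Of 7 methyl-CpG readers, 1 differed among lines: ZBTB33 (Kaiso) was at 39.6 and 46.6 CPM in P3 and 17.0 to 27.1 CPM in the other lines. Of 11 genes that supply or regulate the TET enzymes, 2 differed among lines. IDH3A, a subunit of the enzyme that makes the TET cosubstrate 2-oxoglutarate in mitochondria, was at 14.6 to 19.6 CPM in P1 and P2 and 22.6 to 33.2 CPM in P3 and P4 hESCs (log2 fold change 0.66 ± 0.16, adjusted p = 0.0339 in edgeR). D2HGDH, which clears the TET inhibitor 2-hydroxyglutarate, was at 5.47 and 6.08 CPM in P3 and 10.4 to 16.1 CPM elsewhere.

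Of 17 methyl donor genes, 16 were tested and 1 differed. MAT2B, the regulatory subunit of the enzyme that makes S-adenosylmethionine, was at 45.8 to 60.6 CPM in P1 and P2 and 81.9 to 87.6 CPM in P3 and P4 hESCs, a rise of 0.63 ± 0.13 (log2, SE, adjusted p = 0.0156 in edgeR). Across these 6 partner lists the median log2 fold change of P3 and P4 against P1 and P2 lay between -0.06 and 0.14, against 0.01 for all tested genes.

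Of 16 germline genes that somatic cells hold silent with promoter methylation, 8 were tested, and 4 had at most 3 counts in every sample. Of the 8, 2 differed among lines. In P3 against P1, 1 rose and 0 fell, and the median log2 fold change of the 8 was -0.53. MAGEA4, a cancer-testis antigen, was at 0.201 and 0.252 CPM in P1, 0.633 and 0.588 CPM in P2, 503 and 402 CPM in P3, and 8.62 and 7.30 CPM in P4 hESCs. Both P3 samples were above both P4 samples and these above all P1 and P2 samples, and P3 exceeded P1 by 10.95 ± 0.32 (log2, SE, adjusted p = 2.67e-09 in edgeR). SOHLH2, a germ cell transcription factor, was at 4.19 and 4.10 CPM in P4 and 1.09 to 2.08 CPM in the other lines. In the P3 samples TET1 was at 67.7 and 70.5 CPM and DNMT1 at 176 and 205 CPM, and both overlapped P2. UHRF1 and TET3 in P3 overlapped P1. DNMT3A (111 and 129 CPM) and TET2 in P3 were below all P1 and P2 samples, and DNMT3B, TDG and DNMT3L (12 and 13 counts) were above them. None of these was called in P3 against P1 in edgeR. The share of all genes separated in this way was not counted, so these positions were not read as a result about the enzymes. How MAGEA4 relates to any of these enzymes was not tested.

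Across the 8 samples, the gene most like each enzyme was given by Pearson's r of log2 CPM over 19240 genes with a symbol, as a description with no test. The 8 points are 2 samples of each of 4 lines and are not independent where the samples of a line are alike. TDG was most like RFC3 (r = 0.990), a subunit of the replication clamp loader. UHRF1 was most like GINS1 (r = 0.973), a subunit of the replicative helicase, and TDG and UHRF1 had r = 0.85 with each other. TET3 was most like SIRT5 (r = 0.977), DNMT3A like MUC4 (r = 0.975), TET1 like LINC00937 (r = 0.960), DNMT3B like FTH1P2 (r = 0.978), DNMT3L like CALHM6 (r = 0.987), TET2 like NAALADL2 (r = 0.938) and DNMT1 like ARHGAP22 (r = 0.927). LINC00937 was at 5.04 and 5.51 CPM in P1 and 2.03 to 3.25 CPM in the other 6 samples.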

How the data were processed

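RNA of 8 H9 samples was sequenced from strand-specific mRNA libraries. According to the submitters' processing notes, FastQC, Trim Galore, STAR 2.7.3a and RSEM 1.3.3 were used with GRCh38 (hg38). The annotation release and the strand setting are not given in the sources used here. The deposited RSEM tables of the authors give, for 60675 genes per sample, an expected count (not normalized), a TPM value (scaled by the authors to the transcript length and a fixed total) and an estimated transcript length. Deposited FPKM values were not used. The 9 genes and all gene lists were chosen with earlier results of these data known.

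Expected counts were rounded and fitted in edgeR 4.0.16 (R 4.3.3) with TMM factors and filterByExpr by line, which left 19499 genes, using glmQLFit and glmQLFTest with Benjamini-Hochberg adjustment. P3 and P4 against P1 and P2 was a fit with 2 groups, and the contrasts between lines came from a fit with 4 groups over all 8 samples. CPM are TMM-scaled. The scripts were tested on simulated data. Libraries held 26874899 to 38095600 counts, and 3 counts, used as the floor, were 0.0787 to 0.112 CPM. Intervals from counts cover counting error only. Exact permutation tests (Python 3.11.15, scipy 1.17.1) used the 70 splits of 4 against 4 samples. Gene positions are from GENCODE 29. List genes were named where called in late against early or among lines, at most 6 per list.

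Alternatives were DESeq2 1.42.0, its size factors in edgeR, no low-count filter, limma 3.58.1 on log2(TPM + 1) and log2(TPM + 0.1), no mitochondrial genes, fewer samples and a replicate block. Overlap in TPM and TPM without mitochondrial genes were added after seeing the data. Replicate numbers gave correlations of deviations of -0.0818 to 0.123 between lines and were not taken as pairing samples.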

Additional observations from a re-analysis of the deposited data

Results flagged for a closer look

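In groups of 4 samples, the gap of the farthest sample to its nearest neighbour was compared with the group's range for the 9 enzymes, and 2 of 18 groups stood out where 0.9 are expected by chance. The second P4 sample was far below the other P3 and P4 samples for DNMT3L (a gap of 0.899 of the range, from 3 counts against 12, 12 and 13). The first P2 sample was far above the other P1 and P2 samples for TET2 (a gap of 0.854 of the range, at 8.18 CPM).

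P3 and P4 differed from each other in edgeR for 11 named list genes, although the study places both lines in 1 group. The share of all genes called in this comparison was 3.31%. The list genes were named because they were called among lines or in late against early, so their number cannot be set against that share. The log2 fold changes of P4 against P3 were -1.23 for KDM1A, -0.86 for PCLAF, -1.19 for ZBTB33, 1.04 for D2HGDH, 1.11 for GADD45B and 1.32 for GADD45A. They were -5.83 for MAGEA4 and 1.80 for SOHLH2, and among markers of other cell types -4.25 for FOXA2, 2.69 for EOMES and -1.58 for MAP2. FOXA2 was at 6.76 and 6.33 CPM in P3 and at most 0.977 CPM in the other lines.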

How the results depend on the processing

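In late against early, 0 of the 9 enzymes were called by the study's thresholds or without the 3 samples of high mitochondrial share, 2 (DNMT3L and TET1) in the model with 4 groups, and 0 to 1 with each sample left out in turn. In P3 against P1, 0 were called on log2(TPM + 1) or by the study's thresholds and 0 to 1 with each sample left out, and without the filter, on log2(TPM + 0.1) or with only the 4 samples compared the call was DNMT3L in place of TET1. In P4 against P1, 0 were called on either TPM scale or by the study's thresholds, and 0 to 1 with each sample left out. In P4 against P3, 1 (UHRF1) was called in DESeq2 and 1 without the filter, and 0 to 1 with each sample left out. Among lines, 1 was called in DESeq2 (TET1), 0 on log2(TPM + 1), 1 on log2(TPM + 0.1) (DNMT3L), 0 by the study's threshold and 0 to 4 with each sample left out, the highest without the first P4 sample. In TPM, 1 enzyme (DNMT3L) did not overlap between late and early, and with each sample left out 3 to 5 did not in CPM, the highest without the second P4 sample. A fit with a replicate block called 1 in late against early, 1 in P3 and 1 in P4 against P1, and 2 among lines, the same enzymes as without it. Same-numbered samples did not deviate together (r of -0.0818 to 0.123 between pairs of lines), so the numbers were not read as pairing. The cause of these changes was not tested.

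The other changes of sign were all in values that had not passed the test. On log2(TPM + 1) and log2(TPM + 0.1) the sign turned to -0.42 and -0.43 for DNMT1 and -0.20 and -0.22 for UHRF1 and -0.10 and -0.10 for TDG in late against early, to 0.10 and 0.10 for DNMT3B and 0.15 and 0.16 for TDG in P2 against P1, to -0.0024 and -0.0024 for DNMT3B in P3 against P1, to 0.23 and 0.23 for DNMT1 and 0.083 and 0.085 for DNMT3A in P4 against P3. UHRF1 was -0.012 in late against early with 4 groups, and DNMT1 was 0.0067 in P3 against P1 without the filter. With each sample left out in turn, the signs of several small log2 fold changes turned. In late against early these ranges were -0.036 to 0.071 for DNMT1, -0.27 to 0.29 for UHRF1 and -0.010 to 0.28 for TDG. In P2 against P1 these ranges were -0.10 to 0.00073 for DNMT3B, -0.10 to 0.14 for UHRF1, -0.069 to 0.50 for TET2 and -0.21 to 0.069 for TDG. In P3 against P1 these ranges were -0.14 to 0.083 for DNMT1 and -0.21 to 0.045 for TET3. In P4 against P1 these ranges were -0.19 to 0.010 for DNMT1, -0.041 to 0.55 for DNMT3B, -0.16 to 0.055 for TET3 and -0.49 to 0.13 for TDG. In P4 against P3 these ranges were -0.17 to 0.048 for DNMT1, -0.46 to 0.30 for DNMT3A, -0.15 to 0.44 for DNMT3B, -1.85 to 0.15 for DNMT3L, -0.057 to 0.11 for TET2 and -0.079 to 0.15 for TET3. Of the values of single enzymes under an alternative, 766 kept their direction and side of the threshold, 36 no longer passed it, 10 newly passed it and 50 changed sign. DNMT3L had at most 3 counts in 5 of 8 samples, so depth limits its values.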
